A study of Mus musculus with 8 samples.

Results

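Myc, its partners and its antagonists are the 8 genes Myc, Mycn, Max, Mxi1, Mnt, Mga, Mxd1 and Mxd4, taken by symbol from a table of RefSeq transcripts. They hold 12 of its 19776 transcript rows and make up 8 of 15359 genes, and 4 of them (Myc, Max, Mxi1 and Mga) have 2 rows each. The set was chosen by gene family and selected on the FPKM and calls of Myc, which was highest in the library in which it lacked an m6A call, so the levels and calls of Myc are a description with no test. The series holds 8 libraries from 4 mouse cell cultures of strain C57BL/6, 1 RNA-seq and 1 m6A-seq library each. Neural stem cells (NSC, passage 16) came from E12.5 fetal mouse brain and were grown with EGF and bFGF. Testicular Sertoli cells (SC, passage 2) grew in medium with fetal bovine serum. Induced pluripotent stem cells (iPSC, passage 22) and embryonic stem cells (ESC, passage 14) grew in serum replacement with leukemia inhibitory factor. How the iPSC were reprogrammed, and whether any culture carries an added Myc gene, is not given in the sources used here. Expression is in FPKM (fragments counted per length of transcript and per depth of library), summed over a gene's rows unless a row is named, and m6A is a yes/no call by the authors for each of 5 transcript regions.

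Myc and Mycn are transcription factors with a basic helix-loop-helix leucine zipper, and they bind E-box DNA only as dimers with Max. They raise transcription of genes for ribosome production, metabolism and the cell cycle, and Myc is also a reprogramming factor. Mxd1, Mxi1, Mxd4, Mnt and Mga compete for Max: the Mxd proteins, Mxi1 and Mnt recruit the Sin3 corepressor, and Mga belongs to a Polycomb repressive complex, PRC1.6. The m6A mark, N6-methyladenosine, sits within mRNA, most often near stop codons, and is known to affect mRNA turnover and translation.

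The stretches below show where the members carry GGACT, a pentamer in which m6A is often found, at its place nearest to the stop codon. They were read on the sense strand from GENCODE M21 transcripts (assembly GRCm38) paired with the RefSeq rows, and the capitals mark the pentamer. Myc and Mycn are shown because theirs lie close to the stop codon, and Mnt and Mxi1 because, like Myc, they lacked a call in NSC.
Myc (chromosome 15, coding, 67 bases before the stop codon): cacctctgaaaaGGACTtattgaggaaac
Mycn (chromosome 12, coding, 8 bases before the stop codon): tcgaacacgctcGGACTtgctaaacgttt
Mnt (chromosome 11, 3' UTR, 218 bases after the start of the stop codon): cctgctgcaggaGGACTtggcagacagga
Mxi1 (chromosome 19, 3' UTR of NM_001008542, 1378 bases after the start of the stop codon): cccaagctgtttGGACTttgtattcttta
Myc held 6 GGACT in 2338 nt, or 2.57 per kb, of which 4 lay in the coding part, against a median of 1.06 per kb over 17724 coding transcripts. Mycn held 2, both coding. Within 100 nt on either side of the stop codon, 2 of the 11 paired member transcripts held the pentamer (Myc and Mycn), and 24.6% of all 17724 transcripts did. A match in these letters is a description of the sequence and marks no methylated base.

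Myc was far higher in NSC than in any other library. It stood at 599.5 FPKM in NSC, 30.9 in SC, 18.3 in iPSC and 2.98 in ESC, so that the NSC value was 19.4 times that of SC, 32.8 times that of iPSC and 201 times that of ESC. In NSC it ranked 111th of 11101 genes at 1 FPKM or more, whereas 74.4% of expressed genes stood above it in ESC. SC and iPSC lay within 2-fold of each other, and their order turned round after scaling by the median ratio of the libraries (19.9 in SC and 23.1 in iPSC). With 1 library per cell type no difference has a replicate check, and in a bulk culture more expressing cells and more RNA per cell cannot be told apart.

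The height of Myc in NSC rested on 1 of its rows. NM_001177354 stood at 579 FPKM in NSC, 7.07 in SC, 5.43 in iPSC and 0.807 in ESC. NM_010849 stood at 20.8 FPKM in NSC, 23.8 in SC, 12.8 in iPSC and 2.17 in ESC, so that by this row SC was the highest library as deposited and NSC after scaling (19.7 in NSC, 15.3 in SC and 16.2 in iPSC). NM_001177354 thus took 96.5% of the Myc total in NSC and between 22.9% and 29.7% elsewhere. A range of this width (73.6 percentage points) was met or passed by 46 of 1298 genes with 2 rows and at least 1 FPKM in all libraries (3.54%), whose median range was 21.9 points. GENCODE M21 pairs both rows with 1 and the same transcript, so how the reads were divided between them is uncertain and the sum is used below.

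Myc carried m6A calls in every library but NSC. It was called in 5' UTR, CDS and TsTS in SC and in the same regions in iPSC, and in CDS and TsTS in ESC, while none of its 5 regions was called in NSC. TcSS and TsTS are the submitters' abbreviations, left unexplained in the table, where TsTS follows CDS and precedes 3' UTR. Both Myc rows had the same calls in each library. The GGACT 67 bases before the stop codon, shown above, is part of the transcript paired with both rows.

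**Figure D1:**
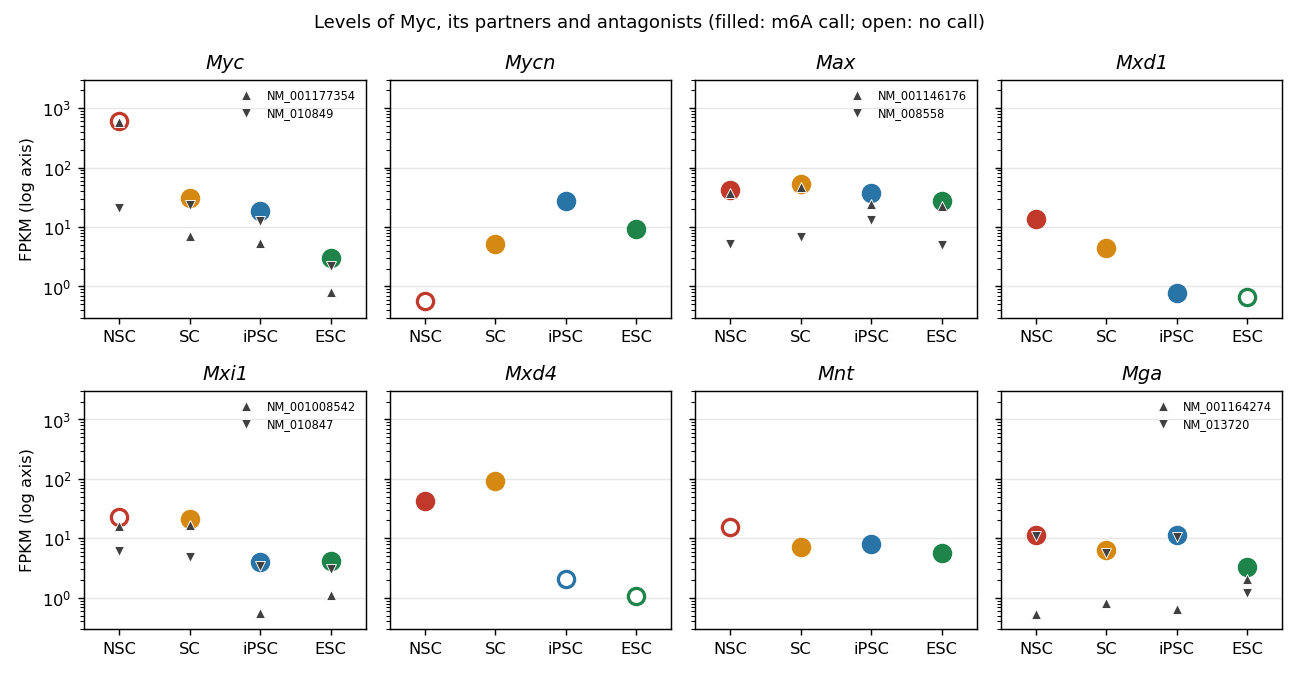
Summed FPKM (log axis) of each gene in the RNA library of NSC, SC, iPSC and ESC; circles are filled where the gene had an m6A call in any region and open where it had none, and triangles are single transcript rows. Myc stands at 599.5 FPKM with an open circle in NSC, Mycn is lowest in NSC (0.571) and highest in iPSC (27.4), and Max stays between 27.4 and 53.9.

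Mycn, the relative of Myc that is prominent in embryonic and neural progenitor cells, was lowest in NSC, where Myc was highest, and highest in iPSC. It stood at 0.571 FPKM in NSC, 5.12 in SC, 27.4 in iPSC and 9.11 in ESC. NSC was lowest, at 0.0209 times the iPSC value and 0.0627 times the ESC value, and iPSC was 3.01 times ESC. SC and ESC lay within 2-fold of each other as deposited, and SC was more than 2-fold lower after scaling (log2 difference, SC minus ESC, of -0.72 as deposited and -1.56 scaled). Myc made up 99.9% of the Myc and Mycn total in NSC, 85.8% in SC, 40.0% in iPSC and 24.6% in ESC. Calls on Mycn covered all 5 regions in iPSC, 4 in ESC (TcSS, CDS, TsTS and 3' UTR) and 2 in SC (CDS and TsTS). It had none in NSC, where it stood below 1 FPKM.

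Max, the shared dimer partner, was the steadiest member. It stood at 42.7 FPKM in NSC, 53.9 in SC, 37.9 in iPSC and 27.4 in ESC, and no pair of libraries differed by 2-fold. Their order was not stable, since scaling gave 40.4 in NSC, 34.7 in SC, 47.9 in iPSC and 35.1 in ESC. It was also the only member besides Mga with a call in all 4 libraries, in 3' UTR alone in NSC, in CDS, TsTS and 3' UTR in SC and ESC, and in these and TcSS in iPSC. The CDS call was on NM_008558 alone in iPSC and on NM_001146176 alone in ESC. Its rows encode proteins from coding parts of 453 nt (NM_001146176) and 480 nt (NM_008558). The shorter took 88.1% of the Max total in NSC, 87.3% in SC, 65.1% in iPSC and 81.8% in ESC, a range of 22.9 points close to the median of genes with 2 rows.

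Mxd1, Mxi1 and Mxd4, antagonists known from differentiating cells, were higher in NSC, itself a stem cell culture, and in SC than in the pluripotent cultures. Mxd4 stood at 43.1 FPKM in NSC and 92.4 in SC, against 2.11 in iPSC and 1.08 in ESC, the widest gap between the pairs among the antagonists. Mxd1 stood at 13.8 FPKM in NSC and 4.44 in SC, against 0.766 in iPSC and 0.675 in ESC. Mxi1 stood at 22.5 FPKM in NSC and 21.5 in SC, against 3.999 in iPSC and 4.15 in ESC. For all of these, both NSC and SC lay above both iPSC and ESC. NSC was above SC for Mxd1 and below it for Mxd4, and iPSC and ESC lay within 2-fold of each other. Scaling kept these orders, though the Mxd1 log2 difference between SC and iPSC (1.62) then came to 0.97, short of 2-fold.

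The Mxi1 difference between the pairs was carried mainly by 1 row. NM_001008542, with the longer coding part (885 nt), stood at 16.3 FPKM in NSC and 16.7 in SC, against 0.554 in iPSC and 1.11 in ESC. NM_010847 (684 nt) stood at 6.16 in NSC and 4.90 in SC, against 3.44 in iPSC and 3.03 in ESC. The longer form took 72.6% of Mxi1 in NSC and 77.3% in SC, against 13.9% in iPSC and 26.8% in ESC. A range as wide as this one (63.4 points) was seen in 95 of the 1298 genes with 2 rows (7.32%).

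Mnt and Mga, the large antagonists, varied less. Mnt stood at 15.4 FPKM in NSC, 7.06 in SC, 8.06 in iPSC and 5.66 in ESC, and the libraries other than NSC lay within 2-fold of each other as deposited. NSC and iPSC lay within 2-fold too (1.91 times). The log2 difference was 1.02 for NSC over SC and 1.30 for NSC over ESC, the latter 0.91 after scaling. After scaling SC was 2-fold below iPSC (log2 difference of -1.01). Mga stood at 11.3 FPKM in NSC, 6.48 in SC, 11.3 in iPSC and 3.29 in ESC, level in NSC and iPSC and lowest in ESC, although after scaling SC (4.18) and ESC (4.22) were level too. Its ESC total was divided unlike the rest: NM_001164274 made up 63.6% of it, against 4.70% in NSC, 12.8% in SC and 5.80% in iPSC, a range that 9.63% of genes with 2 rows met. In ESC this row stood at only 2.09 FPKM and the other row at 1.20, and outside ESC this row stood at 0.531 to 0.831. The ESC share thus rests on low values in 1 library.

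Set by role, the summed levels had a different order in each culture. Myc and Mycn together stood at 600.1 FPKM in NSC, 36.0 in SC, 45.7 in iPSC and 12.1 in ESC. That was 14.1 times the Max level in NSC, 0.667 times in SC, 1.21 times in iPSC and 0.441 times in ESC. The 5 antagonists together stood at 106 FPKM in NSC, 132 in SC, 26.3 in iPSC and 14.9 in ESC, or 2.48, 2.45, 0.693 and 0.542 times Max in that order. The activators exceeded the antagonists 5.66-fold in NSC and 1.74-fold in iPSC, and stood below them in SC (0.273-fold) and ESC (0.813-fold). Mxd1, Mxi1 and Mxd4 made most of this sum of 5 in NSC (79.4 FPKM) and SC (118), whereas Mnt and Mga made most of it in iPSC (19.4) and ESC (8.96). These sums and ratios hold members only and leave out Mycl and the Max-binding repressor Mxd3. With Mxd3 the antagonists stood at 131 FPKM in NSC, 148 in SC, 32.6 in iPSC and 26.4 in ESC. In ESC Mxd3 alone (11.6) exceeded Mnt and Mga together, so the ESC statement holds for the members only. Ratios within a library do not depend on the scaling, and RNA levels say nothing of protein amounts.

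**Figure D2:**
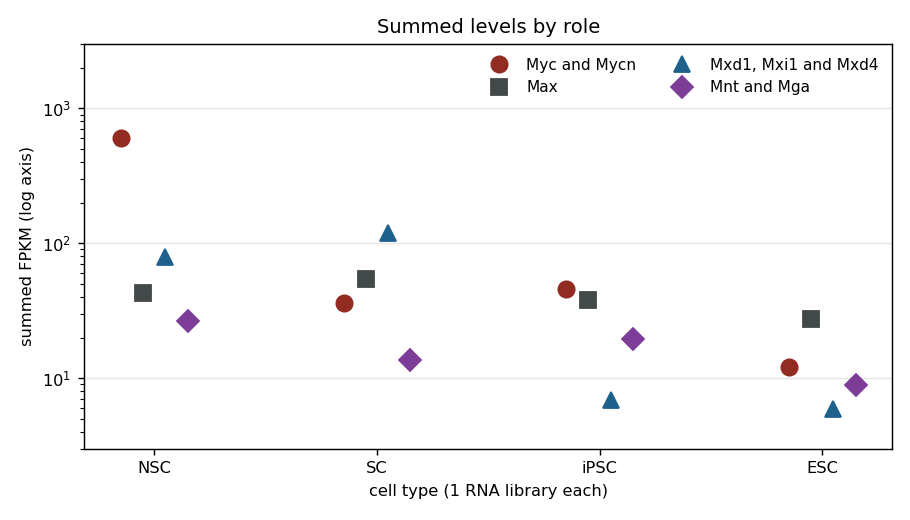
Summed FPKM (log axis) of Myc and Mycn, of Max, of Mxd1, Mxi1 and Mxd4, and of Mnt and Mga in NSC, SC, iPSC and ESC, 1 RNA library each. Myc and Mycn stand above Max in NSC (600.1 against 42.7) and iPSC, and Mxd1, Mxi1 and Mxd4 stand above Max in NSC and SC and below it in iPSC and ESC.

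On the log2(FPKM + 1) scale, 3 of 8 members (Mxi1, Mxd1 and Mxd4) were at least 2-fold higher in both NSC and SC than in both iPSC and ESC, and 0 were lower. Over all 13642 genes 12.8% were higher and 5.01% lower. After scaling, Mxi1 and Mxd4 were higher (6.4% of all genes) and Mycn lower (8.58%). The median log2 difference of the members was 1.37, against 0.64 for all genes, and scaling moved both, to 0.76 and 0.13. Myc missed this rule because SC stood only 1.69 times above iPSC. Between NSC and SC, 3 members were at least 2-fold higher in NSC (Myc, Mnt and Mxd1) and 2 lower (Mycn and Mxd4), against 14.9% and 35.2% of all 12514 genes. The higher count includes Myc, whose level in NSC was part of the choice of the set. Scaling moved the median of all genes in this comparison by 0.49, after which 4 members were higher (Mga as well, 21.6% of genes) and only Mycn was lower (22.1%).

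Between iPSC and ESC, 3 of the 7 members at 1 FPKM or more were at least 2-fold higher in iPSC (Myc, Mycn and Mga) and 0 lower, against 12.9% and 12.4% of all 11598 genes. Myc stood at 18.3 FPKM in iPSC and 2.98 in ESC, 6.14 times apart. Mga stood 3.44 times higher in iPSC. Scaling left the same members on the same side here (13.7% of genes higher, 13.9% lower), and moved the median of all genes by only -0.02.

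The remaining pairs reuse the same libraries and are set side by side without being compared. Pairs with NSC count Myc as higher, and its level in NSC was part of the choice of the set. NSC against iPSC had 4 members higher (Myc, Mxi1, Mxd1 and Mxd4) and Mycn lower, where 30.9% of genes were higher and 14.1% lower; scaling left these members in place, at 22.4% and 20.4% of genes. NSC against ESC had 6 higher (Mnt and Mga in addition) and Mycn lower, where 35.3% of genes were higher and 18.4% lower. Scaling took Mnt off that list, at 27.2% and 25.2% of genes. SC against iPSC had Mxi1, Mxd1 and Mxd4 higher and Mycn lower, where 47.4% of genes were higher and 13.1% lower. Scaling left Mxi1 and Mxd4 higher (27.3% of genes) and put Mycn, Mnt and Mga lower (24.5%). SC against ESC had Myc, Mxi1, Mxd1 and Mxd4 higher and none lower, where 48.7% of genes were higher and 14.5% lower. With scaling the same 4 stayed higher (27.7% of genes) and Mycn became lower (26.1%). Mxi1 and Mxd4 were thus higher in all of these pairs under both scalings.

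The share of members with a call in NSC was close to that of all genes. Of members at 1 FPKM or more, 4 of 7 were called in NSC, 8 of 8 in SC, 6 of 7 in iPSC and 6 of 7 in ESC. Over all genes at that level the shares were 58.1% in NSC, 66.6% in SC, 69.4% in iPSC and 69.0% in ESC, so NSC had the lowest share over all genes too. The NSC count includes Myc, whose missing call chose the set. Those without a call were Myc, Mxi1 and Mnt in NSC and Mxd4 in iPSC and in ESC. Mxd4 was thus called in CDS and TsTS in the cultures where it was high, and Mxd1 stood below 1 FPKM in iPSC, with a CDS call, and in ESC, with none. Counted by region, the members at 1 FPKM or more had 5 called regions of 35 in NSC, 19 of 40 in SC, 21 of 35 in iPSC and 15 of 35 in ESC. The mean per member was 0.714 in NSC, 2.38 in SC, 3 in iPSC and 2.14 in ESC, against 1.27, 1.30, 1.44 and 1.36 over all genes in the same order.

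CDS was called in most members outside NSC. It was called in 2 of 7 members in NSC (Mga and Mxd4), 8 of 8 in SC, 6 of 7 in iPSC and 6 of 7 in ESC, against 43.7%, 46.2%, 45.6% and 41.0% of all genes in those libraries. TsTS was called in 2, 7, 5 and 5 members in that order, against 37.2%, 43.4%, 47.8% and 48.6% of genes. In the 3' UTR the counts were 1 in NSC (Max), 3 in SC, 5 in iPSC and 3 in ESC, against 27.4%, 22.4%, 32.8% and 26.4% of all genes. TcSS calls on members were found in iPSC (Mycn, Max and Mga, against 12.4% of all genes) and ESC (Mycn, against 16.6%), where 1 of 7 is near the share of all genes. In SC 12.6% of genes had one. Calls in the 5' UTR were found in SC (Myc) and iPSC (Myc and Mycn), where 5.22% and 5.16% of all genes had one. In NSC 5.73% of genes had a 5' UTR call and 13.1% a TcSS call.

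**Figure D3:**
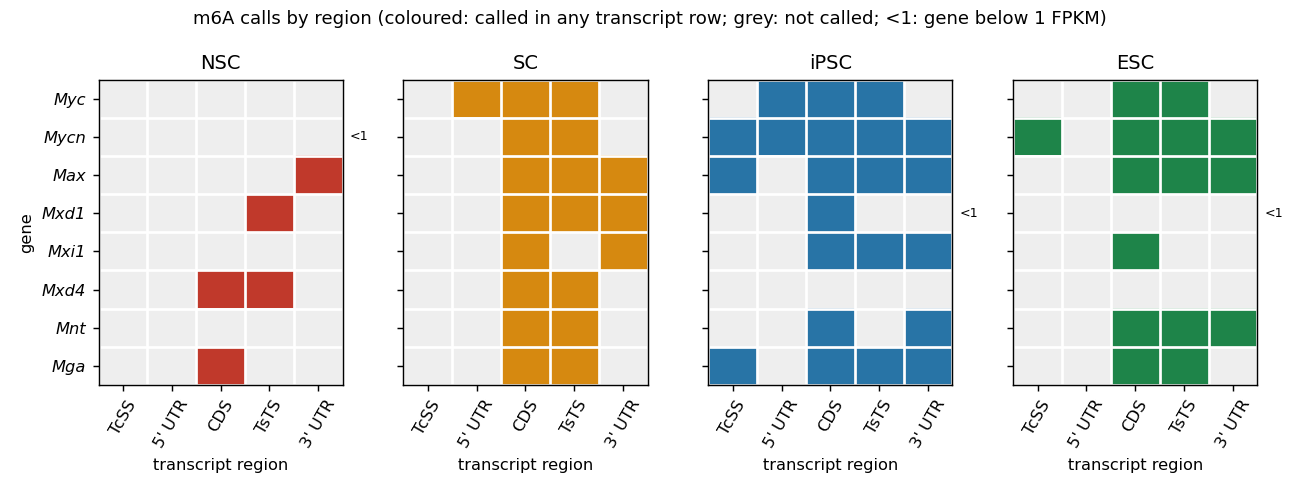
m6A calls on the 5 transcript regions of each gene in NSC, SC, iPSC and ESC; coloured cells are regions called in any transcript row, and "<1" marks a gene below 1 FPKM in that library. NSC holds 5 coloured cells and none for Myc, Mycn, Mxi1 or Mnt, while CDS is coloured for all 8 genes in SC.

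Myc, Mxi1 and Mnt shared a pattern, a call in SC, iPSC and ESC and none in NSC, although each reached 1 FPKM in all 4 libraries. This pattern held for 843 of 8561 such genes (9.85%), more than the matching patterns that lacked a call in SC alone (3.76%), iPSC alone (1.59%) or ESC alone (3.24%). Among the 4776 genes called in SC, iPSC and ESC, 17.7% lacked a call in NSC, and this share was higher at high levels: 33.5% of 173 genes at 100 FPKM or more in NSC, and 39.4% of 33 genes at 300 or more, Myc among them. Since the pattern of Myc chose the set, these shares are its setting and no test.

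In every library the share of all genes with a call was lower at 300 FPKM or more than at 10 to 30 FPKM. In NSC it was 64.6% at 10 to 30 FPKM, where Mxi1 and Mnt lay, and 18.9% of 185 genes at 300 FPKM or more, where Myc lay. At 300 FPKM or more it was 56.4% in SC, 27.6% in iPSC and 54.3% in ESC. Myc itself lay at 30 to 100 FPKM in SC (71.9% of genes called), at 10 to 30 in iPSC (73.1%) and at 1 to 3 in ESC (57.5%). Only 18 of 8561 genes (0.21%) stood at least 10-fold higher in NSC than in every other library, a limit chosen after the Myc values were seen. Of these 18, 15 lacked a call in NSC, where 58.1% of all genes at 1 FPKM or more had one. Of the 7 of them that were called in SC, iPSC and ESC, 5 lacked it in NSC: Myc, Cdc25b, Ncs1, Peg3 and Twist1. Among all genes called in SC, iPSC and ESC, 17.7% lacked it in NSC. Myc is in both counts and its values set the limit, so they are a description and no test. The part of depth or of the call's threshold in this was not tested.

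**Figure D4:**
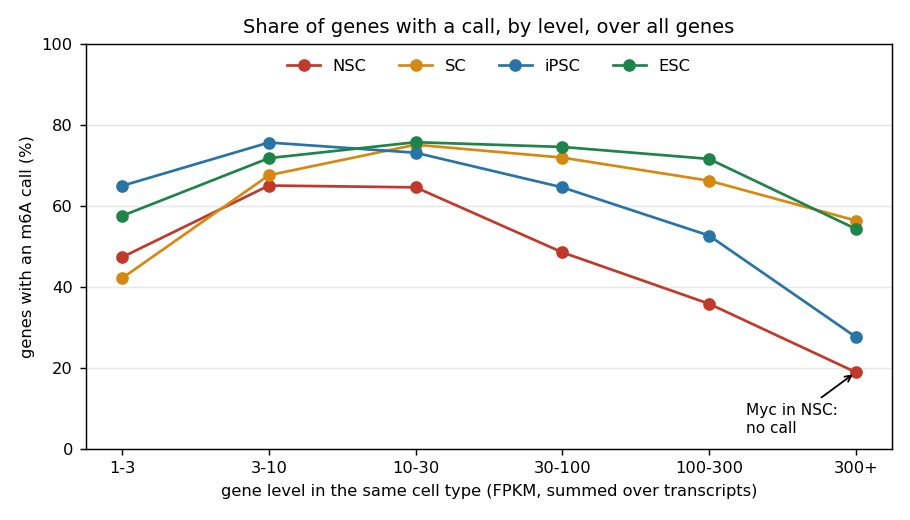
Share of all genes with an m6A call in any region (percent) by summed FPKM in the same cell type, for NSC, SC, iPSC and ESC. The NSC line drops to 18.9% at 300 FPKM or more, the class of Myc, against 56.4% in SC, 27.6% in iPSC and 54.3% in ESC.

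The rest of the family was expressed at moderate levels. Mycl, the remaining Myc paralogue, stood at 6.72 FPKM in NSC, 5.77 in SC, 2.73 in iPSC and 4.11 in ESC and was called in all. Mxd3, a Max-binding repressor of dividing cells, stood at 25.3 FPKM in NSC, 16.2 in SC, 6.31 in iPSC and 11.6 in ESC, also called in all. Mlx, which pairs with the glucose-sensing factors and with some Mxd proteins, stood at 24.1, 38.1, 11.2 and 12.6 FPKM in the same order, with a call in none. Its partner Mlxip stood at 11.2 FPKM in NSC and 8.51 in SC, against 3.48 in iPSC and 1.43 in ESC, and Mlxipl stayed between 0.605 and 2.48. Mlxip was thus 2-fold higher in both NSC and SC than in both iPSC and ESC as deposited. After scaling it was not (log2 difference between SC and iPSC of 0.27), and neither Mxd3 nor Mlx was in either case.

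Corepressors of the antagonists had no common order between the pairs. Of 14 Sin3 complex genes, 0 were at least 2-fold higher or lower in both NSC and SC than in both iPSC and ESC. After scaling 0 were higher and 2 lower. Over all genes 12.8% were higher and 5.01% lower (6.4% and 8.58% after scaling). In NSC against SC, 4 were lower and 0 higher (2 and 1 after scaling), where 35.2% of all genes were lower and 14.9% higher (22.1% and 21.6% after scaling). Among the 4 were Sin3b, a scaffold of the complex, at 91.4 FPKM in NSC and 530 in SC and Sap18 at 94.9 in NSC and 503 in SC. Of the 10 genes of the Mga complex PRC1.6, Yaf2 was higher in NSC (12.9) and SC (45.1) than in iPSC (3.52) and ESC (2.23). Wdr5 was lower (26.7 and 20.97, against 67.6 and 72.6). These counts stood beside 12.8% of all genes higher and 5.01% lower. After scaling 1 was higher and 3 lower, beside 6.4% and 8.58%. Pcgf6, the subunit that defines the complex, stood at 9.32 FPKM in NSC, 4.84 in SC, 29.7 in iPSC and 13.4 in ESC. L3mbtl2, its chromatin-binding subunit, stood at 6.48 in NSC and 13.8 in SC, against 30.6 in iPSC and 27.2 in ESC. In iPSC against ESC, 3 of these 10 were higher (Pcgf6, Tfdp1 and Rnf2) and Ring1 was lower, against 12.9% and 12.4% of all genes.

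Of 13 genes for coactivators of Myc, 2 were lower in both NSC and SC (Ruvbl2 and Wdr5) and 0 higher, against 5.01% and 12.8% of all genes. After scaling 3 were lower and 0 higher, against 8.58% and 6.4%. Ruvbl2, an ATPase of chromatin-remodelling complexes, stood at 59.5 FPKM in NSC and 36.2 in SC, against 132 in iPSC and 183 in ESC, while the scaffold Trrap stood at 18.9 and 26.7, against 9.26 and 4.50. Of 15 genes for Myc stability and other partners, Trim32 and Gsk3b were higher in both NSC and SC and Set lower, against 12.8% and 5.01% of all genes. After scaling 0 were higher and 3 lower, against 6.4% and 8.58%. Gsk3b, the kinase that marks Myc for destruction, stood at 20.9 FPKM in NSC and 10.5 in SC, against 3.24 in iPSC and 3.78 in ESC. Fbxw7, the ubiquitin ligase subunit that recognises the marked protein, stood at 24.5 in NSC, 11.4 in SC, 6.05 in iPSC and 9.02 in ESC.

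Of 34 measured genes known to be activated by Myc, 1 was at least 2-fold higher in NSC than in ESC (Ccnd2, cyclin D2) and 15 were lower, against 35.3% and 18.4% of all genes. After scaling 1 was higher and 20 lower, against 27.2% and 25.2%. Their median log2 difference was -0.72, against 0.45 for all genes, and after scaling -1.15 against 0.09. Those lower included the nucleolar genes Ncl (86.0 FPKM in NSC and 245 in ESC), Fbl (158 and 460) and Nop56 (80.4 and 237). Odc1, the first enzyme of polyamine synthesis, stood at 63.6 FPKM in NSC, 143 in SC, 401 in iPSC and 189 in ESC. In NSC against SC, which share the NSC library with the comparison above, 4 were higher and 6 lower, against 14.9% and 35.2% of all genes, and the median turned from -0.27 as deposited to 0.28 after scaling, so no direction is given. SC against ESC, which shares the ESC library, had 3 higher and 12 lower, against 48.7% and 14.5% of all genes. After scaling 1 was higher and 26 lower, against 27.7% and 26.1%. The median there was -0.67 beside 0.95 for all genes, and -1.63 beside 0.14 after scaling. The lower standing of this list against ESC was thus seen in SC as well as in NSC. In iPSC against ESC, 3 of 33 were higher (Odc1, Eif4e and Tfrc) and 0 lower, a share of higher genes no larger than the 12.9% of all genes.

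Of 13 genes known to be repressed by Myc, 9 were at least 2-fold higher in NSC than in ESC and 2 at least 2-fold lower, against 35.3% and 18.4% of all genes. After scaling 8 were higher and 3 lower, against 27.2% and 25.2%. Their median log2 difference was 1.58 as deposited and 1.17 scaled (0.45 and 0.09 for all genes). Ndrg1, a stress-response gene, stood at 96.1 FPKM in NSC, 5.202 in SC, 2.88 in iPSC and 3.88 in ESC. Itgb1, an integrin subunit, stood at 97.0 in NSC, 292 in SC, 30.3 in iPSC and 9.92 in ESC. The cell cycle inhibitor Cdkn2b went the other way, at 0.347 FPKM in NSC, 164 in SC, 1.42 in iPSC and 3.17 in ESC, as did the stress gene Gadd45b, at 5.25 in NSC, 163 in SC, 15.02 in iPSC and 24.6 in ESC. Against SC, 4 of 14 were higher in NSC and 7 lower, where 14.9% and 35.2% of all genes were, and the median of -1.03 stood beside -0.51 for all genes. Scaling gave 5 higher and 6 lower, with a median of -0.48 beside -0.02. SC against ESC had 11 of 14 higher and 1 lower, where 48.7% and 14.5% of all genes were. After scaling 9 were higher and 2 lower, beside 27.7% and 26.1%. The median there was 2.35 beside 0.95 for all genes, and 1.52 beside 0.14 after scaling, so SC too stood above ESC for this list.

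**Figure D5:**
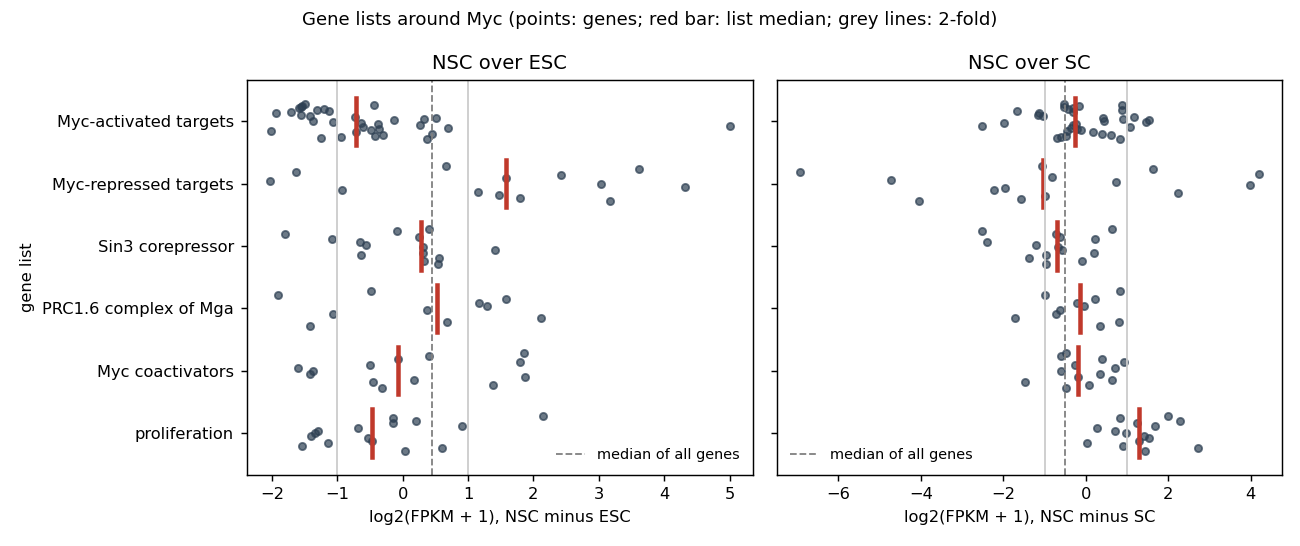
Differences in log2(FPKM + 1) of single genes (points) in 6 gene lists, NSC minus ESC and NSC minus SC, with list medians as red bars, the median of all genes dashed and 2-fold as grey lines. Against ESC the median of Myc-activated targets lies at -0.72 and that of Myc-repressed targets at 1.58, with all genes at 0.45.

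Proliferation genes were lowest in SC. Their median stood at 39.8 FPKM in NSC, 16.6 in SC, 83.6 in iPSC and 72.2 in ESC. Of 15, 9 were at least 2-fold higher in NSC than in SC and 0 lower, against 14.9% and 35.2% of all genes (13 and 0 after scaling, against 21.6% and 22.1%). In NSC against ESC 1 was higher (Mki67) and 5 lower, against 35.3% and 18.4% (1 and 6 after scaling, against 27.2% and 25.2%). Mcm2, a subunit of the replicative helicase, stood at 27.6 FPKM in NSC and 16.6 in SC, against 125 in iPSC and 69.2 in ESC. Myc had another order, highest in NSC and lowest in ESC.

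Of 18 writers, erasers and readers of m6A, Fto was higher in both NSC and SC than in both iPSC and ESC, and Igf2bp1 was lower. Over all genes 12.8% were higher and 5.01% lower. After scaling 0 of the 18 were higher and 2 lower, against 6.4% and 8.58% of all genes. Igf2bp1, whose human counterpart binds and stabilises MYC mRNA, was listed at 0 in NSC and had 0.485 FPKM in SC, 28.1 in iPSC and 30.1 in ESC. Igf2bp3 stood at 0.263 FPKM in NSC, 12.8 in SC, 7.94 in iPSC and 18.1 in ESC, and Igf2bp2 at 3.72, 5.19, 7.97 and 13.3. Igf2bp1 and Igf2bp3 were thus lowest in the library with the most Myc RNA; whether they bear on its level was not tested. Mettl3, the catalytic methyltransferase, stood at 12.01 in NSC and 20.7 in SC, against 12.1 in iPSC and 9.78 in ESC, and the demethylase Fto at 26.3 and 31.8, against 11.1 and 9.69.

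By distance of log2(FPKM + 1) over the 4 RNA libraries among 12917 genes, the genes most like Myc were Igf2r, Peg3os, Mgst3, Trp53i11 and Rap1a. None was close, with distances of 2.54 to 3.06 log2 units. Igf2r, the nearest, stood at 109 FPKM in NSC, 28.9 in SC, 12.2 in iPSC and 4.02 in ESC, and like Myc had a call in all but NSC. The others did not share this pattern: Peg3os, Mgst3 and Rap1a had a call in no library, and Trp53i11 had one in every library. Those most like Mycn were Tcfl5, Gfpt2, Zcchc3, Rian and Tfpi, at 0.438 to 1.10. Tcfl5, itself a helix-loop-helix factor, stood at 0.797 FPKM in NSC, 4.14 in SC, 22.7 in iPSC and 10.3 in ESC, and shared the calls of Mycn as present or absent in each library. Zcchc3 shared them too, whereas Gfpt2, Rian and Tfpi did not.

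The cultures were checked against their markers. Pou5f1, the core pluripotency factor, stood at 0.0221 FPKM in NSC, 0.0761 in SC, 556 in iPSC and 1051 in ESC, and 7 of 8 pluripotency genes were lower in both NSC and SC. Klf4, another reprogramming factor, was highest in NSC at 303 FPKM, against 21.2 in SC, 62.1 in iPSC and 136 in ESC. NSC held Pax6 (15.4), Sox2 (14.3) and Prom1 (13.9) but little Nes (9.10, against 85.9 in SC) and Fabp7 (0.380), with Sox1 listed at 0. The 9 matched Sertoli cell markers summed to 4.67 FPKM in NSC, 12572 in SC, 17.2 in iPSC and 17.1 in ESC, and fibroblast and myoid markers to 28.1, 4611, 58.9 and 4.95. Clu alone made 11071 of the Sertoli sum in SC, 11.3 in iPSC and 9.67 in ESC, though all 9 were at least 2-fold higher in SC than in NSC, iPSC and ESC. Tagln (2166) and Acta2 (1795) made most of the fibroblast and myoid sum in SC. The neuron and glia list summed to 49.5 FPKM in NSC, 923 in SC, 28.1 in iPSC and 21.1 in ESC, of which Tubb3 alone made 828 in SC. The germ and Leydig cell list summed to 2.66 in NSC, 106 in SC, 116 in iPSC and 59.1 in ESC, mainly from the Leydig cell genes Star (56.0) and Cyp11a1 (46.3) in SC and from the germ cell gene Stra8 in iPSC (68.2) and ESC (35.8). Blood and endothelial genes summed to 0.111, 2.97, 17.9 and 21.5 in the same order, with Pecam1 at 17.7 in iPSC and 21.4 in ESC. The part of other cells in the levels of the Mxd genes in SC was not tested.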

How the data were processed

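The deposited table gives, per the file headers, FPKM for each RefSeq transcript in 4 RNA-seq libraries and a call (1 modified, 0 not) for 5 regions in 4 m6A-seq libraries, all made by the authors. Per the labels' protocols, mRNA was fragmented and, for m6A-seq, enriched with an antibody. CASAVA, Cufflinks 2.0.2, TopHat2 2.0.4 and the build mm9 appear, without roles, per the submitters' processing notes. Which caller and control gave the m6A calls is not given in the sources used here. Read depth is unknown, so no detection floor is given, and summed FPKM ranged from 394600 to 818860.

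Symbols came from RefSeq tables of GRCm38.p6 (19446 rows) and GENCODE M21 (104); 226 rows had no match. As builds differ, no coordinates are given. Rows were summed per gene, differences taken on log2(FPKM + 1) among genes at 1 FPKM or more in a library compared, and 2-fold counted as different. Scaling divided each library by its median ratio over genes above 1 FPKM in all (1.06 in NSC, 1.55 in SC, 0.791 in iPSC, 0.781 in ESC). A gene was called where any row and region was. With 1 library per group no p-values were computed. The counting rule was run on simulated data without noise, which checks its arithmetic and not the spread between libraries. Named were all members, the remaining family, genes with the widest spread in each list (up to 4, at 10 FPKM or more in 1 library), m6A factors, the 5 nearest to Myc and to Mycn, and cell markers; Ncl, Fbl, Nop56, Mki67 and the genes listed beside small counts or under the 10-fold limit were chosen after their values were seen. One marker gene is not reported here. Members and lists were chosen with earlier results of these data known. Python 3.11.15, pandas 2.3.3 and numpy 2.4.6 were used.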

Additional observations from a re-analysis of the deposited data

How the results depend on the processing

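Under pseudocounts of 0.1 and 5, median-ratio scaling and use of the row with the highest mean, 166 of 192 pairwise differences of the members kept their direction and their side of 2-fold, 26 did not, and 0 of those past 2-fold changed sign. Of the 26, 14 came with scaling, 8 with pseudocount 5 and 4 with the highest row. Counts of members past 2-fold changed by more than 1.5 times in these cases: with scaling, 1 member (Mycn) became lower in NSC and SC than in iPSC and ESC, and 1 instead of 2 was lower in NSC than in SC. Scaling also put 3 members instead of 1 lower in SC than in iPSC (Mycn, Mnt and Mga) and 1 instead of 0 lower in SC than in ESC (Mycn). With pseudocount 5, 1 member instead of 3 was higher in NSC than in SC (Myc) and 1 instead of 2 lower (Mxd4). At a minimum of 5 FPKM, 3 members were called in ESC, all of those left, instead of 6. A pseudocount of 5 draws low values together and a higher minimum leaves fewer genes; otherwise the cause was not tested. For NSC and SC over iPSC and ESC, NSC over SC, iPSC over ESC and the calls, the other counts of members, also without a filter, with the row of highest mean, and with calls in CDS, TsTS and 3' UTR only, stayed within 1.5 times. No paired analysis was possible because each cell type had 1 library per assay, which also left no replicate to leave out. Depth is unknown, so a missing call, above all in low genes, sets no limit on the mark.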
